A study of Mus musculus with 2 samples.

Results

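Intraflagellar transport (IFT) and Bardet-Biedl genes build and supply the cilium, and 38 of them were followed here through the cells of the mouse olfactory epithelium. All 38 symbols, listed by name from the known complexes, were found among the 32534 features counted. The set holds 13 members of the IFT-B complex, 5 of IFT-A, 8 of the BBSome, 3 chaperonin-like Bardet-Biedl genes, 6 motor genes, and 3 ciliary GTPase and adaptor genes. Epithelium of transgenic and of wild-type mice, 1 library each with the number of animals not stated, had been dissociated and read as unsorted single cells by 3′ RNA sequencing with unique molecular identifiers (UMIs). The transgenic library is labelled female, 9 weeks, of genotype Tg(Or8a1-OR1A1,-MAPT/mCherry)D736Feins/+, and its title adds 5x21 OR1A1 beta. This hemizygous transgene names Or8a1, the human odorant receptor OR1A1 and MAPT/mCherry, and 1 transgenic line was used. The wild-type library is labelled female, 8 weeks, genotype WT, with the strain given as 10G4-V2.2-#7/Jax crossed with Bl6/129SF1/J. Age and strain differed along with the transgene, and each genotype was 1 library, so no test between genotypes was possible and no p-value is given.

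Cilia are made by trains of IFT particles that run along the axoneme, the microtubule core of the cilium. These trains hold both IFT-B and IFT-A, and they are pulled outward by kinesin-2 and return with dynein-2. The BBSome rides on these trains and carries membrane proteins in and out of the cilium, and the chaperonin-like Bardet-Biedl proteins help to assemble it. A mature olfactory sensory neuron bears many long immotile cilia at its dendritic knob, and odorant receptors and their signalling enzymes and channels lie in their membrane. Loss of Bardet-Biedl genes is known to reduce these cilia in mice and the sense of smell in mice and people. These genes are therefore followed by the stage at which an olfactory neuron forms its cilia.

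The transgenic library held 70572741 UMIs and gave 1745 cells with a median of 14440 UMIs, and the wild-type library held 55701219 UMIs and gave 1117 cells with a median of 12983 UMIs. The libraries shared 1 cell barcode. The transgene feature had 2904 UMIs over 475 transgenic cells and 0 UMIs in the wild-type cells. A feature named 10G4, of unstated sequence, had 175 UMIs in transgenic cells and 168 UMIs in wild-type cells. Cells were clustered without the 38 members and without the other ciliary genes counted below, and the classes are marker-defined likenesses (mature neuron-like and so on), written from here on without that suffix. A level is the sum of a gene's UMIs over the cells of a class per 1000000 UMIs of that class (CPM). Values compare 1 gene between classes, and intervals at 95% cover counting error only, not the spread between mice.

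Members were searched for the DNA site of RFX factors, which are known activators of ciliary genes, because a shared promoter element is a property that the choice of members did not use. The site, the X-box, was written as GTTNCC followed after 0 to 3 bases by GGNAAC, and a single arm as GTTGCCA, on both strands, with an arm allowed to lie within an X-box. RefSeq promoters of GRCm38.p6, from 250 bases before to 50 bases after the start, were at hand for 34 of the 38 members (35 promoters), and Ift80, Ift81, Ift122 and Dync2li1 had none. An X-box by these letters lay in 2 of the 35 promoters (5.71%), against 264 of the 32851 promoters of all genes (0.804%). A single arm lay in 6 of the 35 (17.1%), against 1439 of all (4.38%), and no member promoter had both. The members' promoters had a median GC content of 59.7%, against 52.7% in all promoters, and a median of 22 CpG dinucleotides, against 7. An X-box also lay in 30% of 10 promoters of the other IFT, dynein-2 and BBSome-associated genes counted below. It lay in 16.7% of 24 transition zone, 13.3% of 15 lipidated cargo and 4% of 25 motile axoneme promoters. The remaining lists had 0%. A single arm lay in 30%, 25%, 0% and 20% of the named lists in that order. In the remaining lists it lay in 5.88% to 21.4%. Such matches are therefore not particular to the members. These are matches of letters in 1 window, and no binding was measured.

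The 250 bases before the start of both members with an X-box are printed with the X-box in capitals; the arms are 2 bases apart in Bbs7, at positions -121 to -108, and 1 base apart in Ift57, at positions -60 to -48, where -1 is the last base before the start.
Bbs7, chr3:36613390-36613639, minus strand: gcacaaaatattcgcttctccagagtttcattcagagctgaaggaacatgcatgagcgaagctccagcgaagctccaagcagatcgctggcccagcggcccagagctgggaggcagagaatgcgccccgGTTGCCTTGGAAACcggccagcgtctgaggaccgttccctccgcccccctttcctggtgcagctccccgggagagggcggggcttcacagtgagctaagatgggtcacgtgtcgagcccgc
Ift57, chr16:49699044-49699293, plus strand: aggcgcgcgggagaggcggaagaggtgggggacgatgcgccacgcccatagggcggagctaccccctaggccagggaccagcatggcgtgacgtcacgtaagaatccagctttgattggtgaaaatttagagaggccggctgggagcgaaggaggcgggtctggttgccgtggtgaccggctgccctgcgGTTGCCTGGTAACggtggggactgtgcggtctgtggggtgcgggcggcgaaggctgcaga
Around each single arm, up to 11 bases on either side are printed with the arm in capitals, since these are the only other matches among the members. The arm lies before the start in Traf3ip1 (-79 to -73) and Ift27 (-9 to -3). It lies after the start in Bbs1 (2 to 8), Ift88 (21 to 27), Dync2h1 (36 to 42) and Wdr35 (41 to 47).
Traf3ip1, chr1:91494578-91494606, plus strand: ggcgcgcgtccGTTGCCAaggccgcgcgg
Ift27, chr15:78174073-78174101, minus strand: ggttgatgatgGTTGCCAggagcctgttt
Ift88, chr14:57424080-57424108, plus strand: ggagtcgcgccTGGCAACggctgggcgtc
Wdr35, chr12:8974030-8974050, plus strand: gggcggcggtgGTTGCCAggc
Bbs1, chr19:4906609-4906637, minus strand: tggctgagctgGTTGCCAaggcgacgcct
Dync2h1, chr9:7177009-7177034, minus strand: gcgacggagctTGGCAACtgctgagt
For Ift172 and Arl13b, the members with the largest rise described below, the 250 bases before the start held neither form by these letters and are printed in lower case throughout.
Ift172, chr5:31291115-31291364, minus strand: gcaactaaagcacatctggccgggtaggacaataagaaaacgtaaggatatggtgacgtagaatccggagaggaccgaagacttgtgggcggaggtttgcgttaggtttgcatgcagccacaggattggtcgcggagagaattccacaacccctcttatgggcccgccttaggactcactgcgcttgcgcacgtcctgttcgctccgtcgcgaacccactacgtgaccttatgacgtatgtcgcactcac
Arl13b, chr16:62847041-62847290, minus strand: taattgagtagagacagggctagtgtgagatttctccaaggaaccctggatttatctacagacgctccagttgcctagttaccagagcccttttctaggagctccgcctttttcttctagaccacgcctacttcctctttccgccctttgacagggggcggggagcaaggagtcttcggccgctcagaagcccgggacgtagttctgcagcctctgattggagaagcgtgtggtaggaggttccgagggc

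The 6 stages of the neuronal lineage were read in order: Top2a cells (dividing globose basal cells), Neurod1 cells (immediate neuronal precursors), Tex15 cells (early immature neurons), Gap43-high cells (later immature neurons), a cluster in transition with both Gap43 and Omp, and Omp-high mature neurons. They held 53, 70, 58, 161, 126 and 646 transgenic cells and 7, 16, 9, 45, 29 and 443 wild-type cells. The wild-type Top2a and Tex15 classes are therefore small. Summed over the 38 members, the level in plain CPM was higher at each stage up to the transition cluster in both libraries. Transgenic cells had 1551, 2125, 2526, 3802, 4368 and 3955 CPM in that order of stages. Wild-type cells had 1559, 2088, 2646, 3651, 4345 and 4282 CPM in the same order. The sum in transgenic Top2a cells was 35.5% of its highest stage, and in wild-type Top2a cells 35.9%, so UMIs of the genes were already found in dividing progenitors. In plain CPM the transgenic sum was 3914 to 3996 CPM in mature neurons and 4280 to 4457 CPM in transition cells (95% intervals), and in the wild-type library those intervals overlapped, at 4228 to 4336 CPM and 4171 to 4524 CPM. This order turned with TMM scaling, which gave 4620 in mature neurons and 4128 in transition cells of the transgenic library, and 4622 and 3598 in the wild-type library. Which of these stages was highest therefore depends on the scaling.

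**Figure D1:**
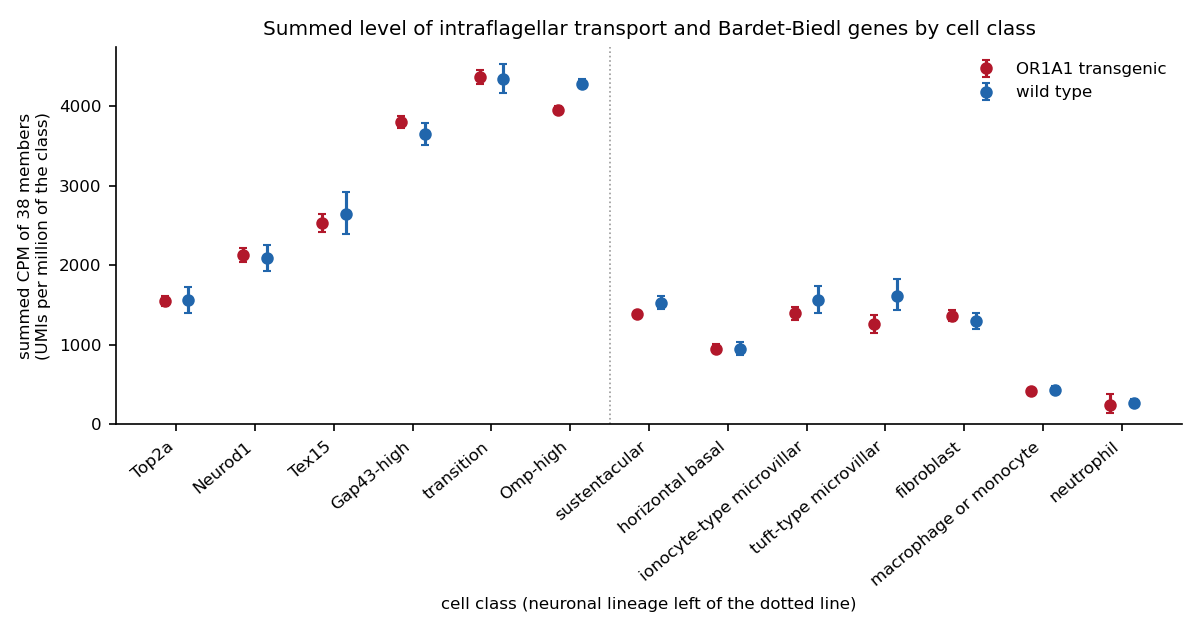
Summed CPM of the 38 members (vertical axis, UMIs per 1000000 of the class) in each cell class, with OR1A1 transgenic (red) left of wild type (blue); bars are exact 95% Poisson intervals of the sum. In plain CPM the transgenic lineage has 1551 CPM in Top2a cells and 4368 CPM in the transition cluster (with TMM scaling mature neurons are highest), and the 7 non-neuronal classes drawn lie at or below 1620 CPM.

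The number of members seen in a cell was also higher in later stages. With each cell thinned to 5000 UMIs, the median transgenic cell held a UMI of 6, 8, 10, 13, 15 and 13 of the 38 members along the stages. The median wild-type cell held 7, 7.5, 10, 13, 14 and 15. A transgenic myeloid cell, of a type generally without cilia, held 2 and a wild-type one 1. The median member had a UMI in 65.4% of the transgenic mature neurons and 66.5% of the wild-type ones before thinning, and in 33.6% and 37.7% after it. In myeloid cells the median member was seen in 4.84% of transgenic and 4.14% of wild-type cells, or 2.15% and 2.07% after thinning. Kifap3, the kinesin-2 accessory subunit, was seen in 98.9% of the transgenic mature neurons and 97.5% of the wild-type ones, and Ift43, an IFT-A subunit, in 96.9% and 97.5%. Kif17, a kinesin-2 that forms a homodimer, was seen in 10.8% of the mature neurons of each library.

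Some members passed 2-fold between summed progenitors and Gap43-high neurons. Top2a and Neurod1 cells were summed as progenitors, and a member was called when its CPM ratio, with 1 UMI added to each sum, was at least 2-fold in the same direction in both libraries. Of the 34 members with at least 20 UMIs in each library over both classes, 12 were higher in Gap43-high neurons and 0 were lower. Among all 8065 genes measured this way, 16.5% were higher and 9.08% lower. The median log2 ratio of the members was 0.95, with 31 of 34 above 0 in both libraries, and that of all measured genes was 0.15. Counting intervals lay above 0 in both libraries for 22 of the 34 members (25.6% of all genes) and below 0 for 0 (16.6% of all genes). Bbs10, Bbs12, Mkks and Kif17 had too few UMIs to be measured. The count of 12 was 5 with clustering at resolution 0.5 and 5 with a fixed cell minimum of 2000 UMIs, and the 5 under both were Ift81, Ift172, Kifap3, Traf3ip1 and Arl13b. Against Neurod1 cells alone 7 members were called, and 6 of them were among the 12. Those 6 were Ift81, Ift172, Bbs5, Kifap3, Traf3ip1 and Arl13b. The 12 called members were Ift81, Ift88, Ift172 and Traf3ip1 of IFT-B, Ift43 of IFT-A, Bbs4, Bbs5 and Bbs7 of the BBSome, the 3 kinesin-2 subunits Kif3a, Kif3b and Kifap3, and the GTPase Arl13b.

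IFT-B members divided most widely at this step. Ift172, a large peripheral subunit of the train, had 79.6 CPM in Gap43-high neurons and 12.1 CPM in progenitors of the transgenic library, and 73.4 and 16.4 CPM in the wild-type library. Its log2 ratio was 2.68 (2.18 to 3.30) in transgenic and 2.04 (1.13 to 3.37) in wild-type cells. The level stayed low until late, at 11.2, 13.3 and 16.8 CPM in transgenic Top2a, Neurod1 and Tex15 cells. In wild-type cells of those 3 stages it was 8.38, 22.6 and 13.3 CPM. Those wild-type values rest on few UMIs, from 7, 16 and 9 cells with 238607, 310274 and 150062 UMIs of all genes. Traf3ip1 (IFT54), which links the train to microtubules and kinesin-2, rose with log2 ratios of 2.01 in transgenic and 1.73 in wild-type cells. It had 39.6, 38.1, 76.2, 158, 212 and 214 CPM along the 6 transgenic stages and 50.3, 32.2, 113, 137, 197 and 231 CPM along the wild-type stages. Ift81, which binds tubulin cargo together with Ift74, rose with a log2 ratio of 1.59 averaged over both libraries. Ift74, its partner, did not pass and differed between libraries: the log2 ratio was 0.62 (0.41 to 0.84) in transgenic and -0.31 (-0.72 to 0.10) in wild-type cells. Ift88, a core subunit needed for ciliary assembly, rose with log2 ratios of 1.14 in transgenic and 1.55 in wild-type cells.

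The flattest members at the same step were also IFT-B genes. Ift22, a small GTPase-like subunit, had log2 ratios of 0.39 in transgenic and -0.45 in wild-type cells, and its level lay between 60.7 and 94.3 CPM in every transgenic stage. Cluap1 (IFT38) had 0.36 in transgenic and -0.11 in wild-type cells. Ift27, a GTPase of the train that helps the BBSome leave the cilium, had 0.06 and 0.35, and Ift46 had 0.44 and 0.04 in transgenic and wild-type cells. Of the 13 IFT-B members, 4 were called higher, 10 had ratios above 0 in both libraries, and their median log2 ratio was 0.57.

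Among the 5 IFT-A members 1 was called at this step, Ift43. It had 352 CPM in Gap43-high neurons and 162 CPM in progenitors of the transgenic library, and 314 and 124 CPM in the wild-type library. The other 4, Ift122, Ift140, Wdr19 (IFT144) and Wdr35 (IFT121), had ratios above 0 in both libraries. The median log2 ratio of the 8 BBSome members was 1.11, all 8 were above 0 in both libraries, and 3 were called. Bbs4, which joins the BBSome to the centriolar satellite protein Pcm1 on its way to the cilium, was at 13.2 CPM in transgenic Top2a cells and 12.6 CPM in wild-type Top2a cells, and already at 46.0 and 41.9 CPM in Neurod1 cells. Its log2 ratio over progenitors was 1.42 in transgenic and 1.32 in wild-type cells. Bbs5, which binds phosphoinositides, had log2 ratios of 1.20 and 1.85, and Bbs7, a propeller subunit, 1.24 and 1.72 in transgenic and wild-type cells.

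All 3 subunits of the heterotrimeric kinesin-2 were called higher, and of these Kifap3 alone was called against Neurod1 cells alone, at resolution 0.5 and with the 2000-UMI minimum. Neither dynein-2 member was called, but Dync2h1 was called against Neurod1 cells alone, with stages set by marker UMIs and in the wild-type library alone; the difference between the motors was not tested. Kif3a, a motor subunit, had log2 ratios of 1.69 (1.49 to 1.91) in transgenic and 1.27 (0.87 to 1.73) in wild-type cells, and Kif3b, its partner, 1.51 and 1.46. Kifap3 had 1.90 (1.71 to 2.10) in transgenic and 1.57 (1.19 to 2.01) in wild-type cells. Its level was 70.6, 146, 225, 384, 456 and 354 CPM along the transgenic stages and 79.6, 145, 193, 351, 454 and 354 CPM along the wild-type stages. The kinesin heavy chains and Kifap3 also serve transport outside cilia. Dync2h1, the dynein-2 heavy chain, had log2 ratios of 0.93 in transgenic and 1.20 in wild-type cells, and Dync2li1, its light intermediate chain, 0.51 and 0.97. Arl13b, a GTPase of the ciliary membrane, had 2.36 in transgenic and 2.18 in wild-type cells, with 164 and 147 CPM in Gap43-high neurons. Arl6 (BBS3), the GTPase that recruits the BBSome to membranes, had 1.01 in transgenic and 0.42 in wild-type cells and so did not pass in both.

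**Figure D2:**
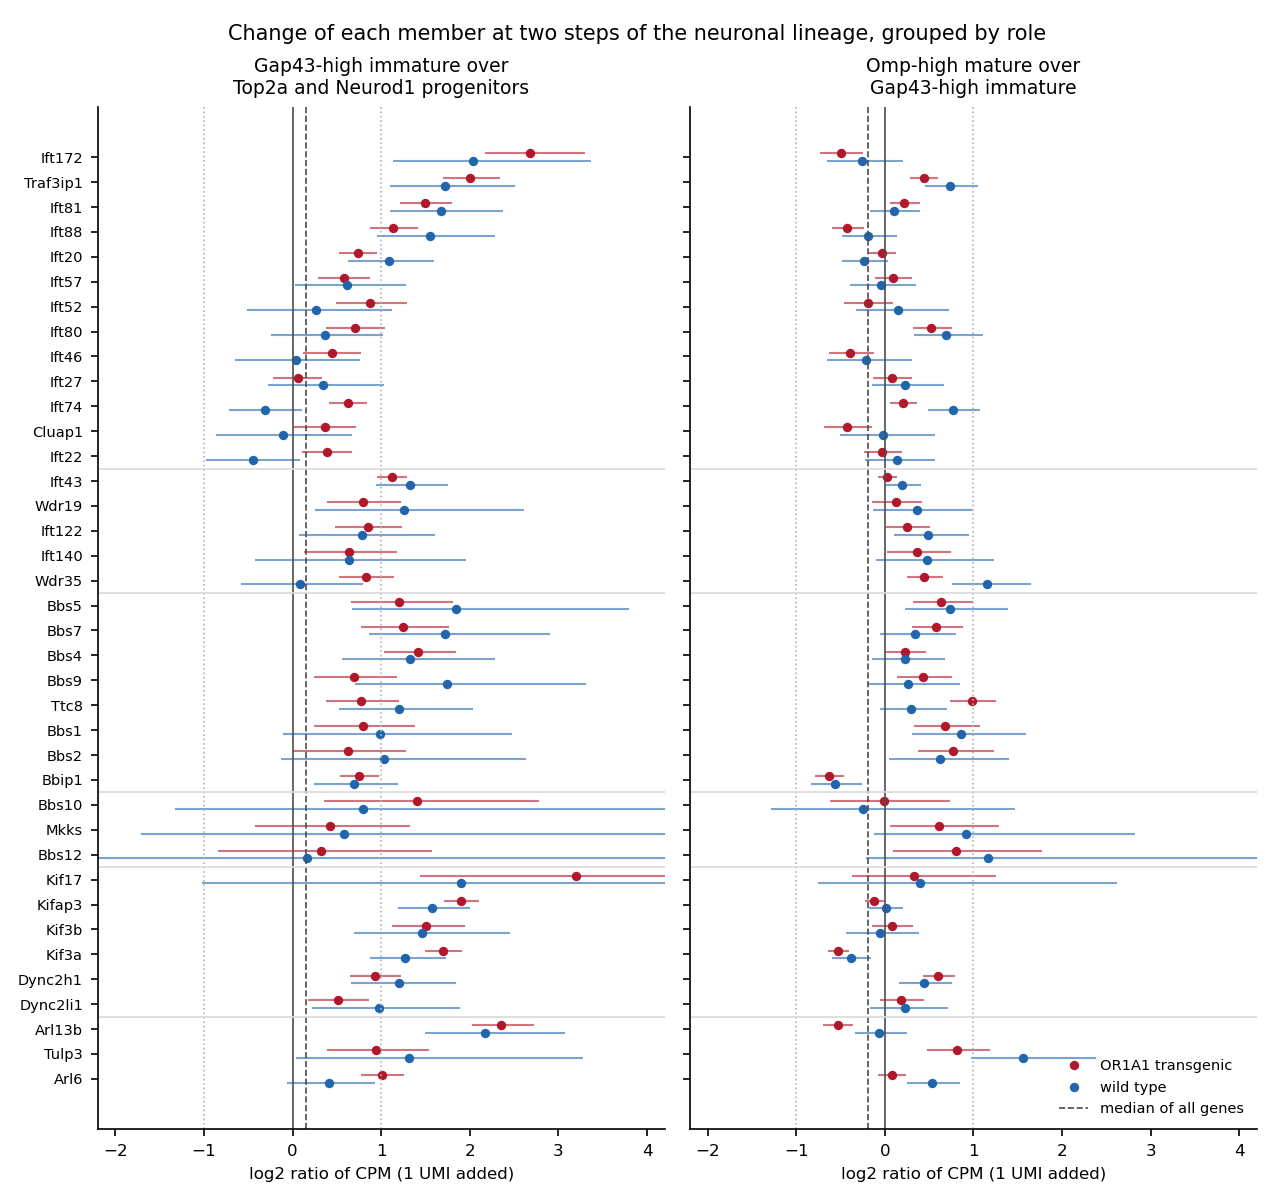
Log2 ratio of CPM (horizontal axis, 1 UMI added) of each member, grouped by role and ordered by the left panel, for Gap43-high over progenitors (left) and Omp-high over Gap43-high (right); points are OR1A1 transgenic (red, upper) and wild type (blue, lower), bars are 95% counting intervals running off the axis where they exceed it, dashed lines the median of all measured genes and dotted lines 2-fold. On the left 12 members lie past 2-fold in both libraries, and on the right 0 do; Bbs10, Mkks, Bbs12 and Kif17 are drawn on the left although they had too few UMIs to be measured there.

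Between mature and Gap43-high neurons no member passed 2-fold in both libraries. All 38 were measured, and 0 were called higher and 0 lower in mature neurons. Of all 10844 genes measured at this step, 7.26% were higher and 10.6% lower by 2-fold or more in both libraries. The median log2 ratio of the members was 0.24, with 24 of 38 above 0 and 9 below 0 in both libraries, and that of all measured genes was -0.19. Counting intervals lay above 0 in both libraries for 10 members (14.3% of all genes) and below 0 for 2 members (22.4% of all genes). The 10 were Ift74, Ift80, Ift122, Wdr35, Bbs1, Bbs2, Bbs5, Dync2h1, Traf3ip1 and Tulp3, and the 2 were Bbip1 and Kif3a. TMM scaling moved the median of all genes to 0.23 and called 6 members higher, which were Bbs1, Bbs2, Bbs5, Bbs12, Mkks and Tulp3. The share of all genes called with TMM scaling is not given here, so this count is not set against a background.

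Median ratios were also taken by role, and differences between roles were not tested. For the BBSome the median log2 ratio of mature over Gap43-high neurons was 0.55, with 7 of 8 above 0 in both libraries, and for IFT-A it was 0.37, with 5 of 5. For IFT-B it was 0.02, with 5 of 13 above and 5 of 13 below 0 in both libraries, and for the motors 0.11. The IFT-A values cover the members only. Ttc21b, an IFT-A subunit that is not a member, was called lower, at -2.85 in transgenic and -2.75 in wild-type cells. Tulp3, an adaptor that brings membrane receptors to IFT-A, had the highest ratio, with 53.1 CPM in mature and 30.0 CPM in Gap43-high neurons of the transgenic library, and 80.2 and 25.8 CPM in the wild-type library. Its log2 ratio was 0.81 (0.48 to 1.19) in transgenic and 1.56 (0.97 to 2.38) in wild-type cells, so it passed 2-fold in the wild-type library alone. Bbs12, a chaperonin-like gene, had 0.80 in transgenic and 1.16 in wild-type cells, on 2.72 CPM in wild-type Gap43-high neurons. Wdr35 had 0.44 in transgenic and 1.15 in wild-type cells. Bbs1, a propeller subunit that binds Arl6, had 46.0 CPM in mature and 28.5 CPM in Gap43-high neurons of the transgenic library, and 59.1 and 31.3 CPM in the wild-type library. Mkks (BBS6) had log2 ratios of 0.61 in transgenic and 0.91 in wild-type cells.

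At the other end stood Bbip1, the smallest BBSome subunit, with 114 CPM in mature and 176 CPM in Gap43-high neurons of the transgenic library, and 114 and 167 CPM in the wild-type library. Its log2 ratio was -0.63 (-0.79 to -0.47) in transgenic and -0.56 (-0.83 to -0.26) in wild-type cells. Kif3a had 215 CPM in mature and 309 CPM in Gap43-high neurons of the transgenic library, and 209 and 272 CPM in the wild-type library. Ift172 had log2 ratios of -0.50 in transgenic and -0.25 in wild-type cells, Ift88 -0.42 and -0.19, and Ift46 -0.39 and -0.22. Ttc8 (BBS8), another BBSome subunit, had 0.98 in transgenic and 0.30 in wild-type cells. Ift43 was level at 358 and 352 CPM in mature and Gap43-high transgenic cells, with a log2 ratio of 0.02 (-0.08 to 0.13), and had 0.20 (0.01 to 0.41) in wild-type cells. With TMM scaling the ratios averaged over both libraries stayed below 0 for Bbip1 and Kif3a and turned above 0 for Ift172, Ift88 and Ift46.

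Counted by the stage at which each member was highest, 19 of 38 were highest in the transition cluster, 9 in mature neurons, 5 in Gap43-high and 5 in Tex15 cells of the transgenic library. In the wild-type library 11 were highest in the transition cluster, 18 in mature neurons, 4 in Gap43-high cells, 3 in Tex15 cells, 1 in Neurod1 and 1 in Top2a cells. The shares of all 11600 genes with at least 20 UMIs over the stages that were highest there were 16.2% for the transition cluster, 16.9% for mature neurons, 16.9% for Gap43-high and 14.9% for Tex15 cells of the transgenic library. In the wild-type library they were 15.6%, 17%, 14.7% and 16.7% in the same order, with 13.2% for Neurod1 and 22.7% for Top2a cells. Both libraries put 9 members in the transition cluster, 9 in mature neurons and 3 in Gap43-high cells, namely Ift172, Bbip1 and Kif3a. The share of all genes put at the same stage by both libraries is not given here. Counts shared by both libraries are therefore not set against a background. The 9 that were highest in mature neurons of both libraries were Ift43, Ift80, Bbs1, Bbs2, Bbs4, Bbs7, Ttc8, Traf3ip1 and Tulp3, of which 5 are BBSome subunits. With TMM scaling the counts moved to 8 in the transition cluster and 23 in mature neurons of the transgenic library (8.91% and 33.6% of all genes), and to 2 and 31 in the wild-type library (8.05% and 32.2% of all genes). Of the 3 that both libraries put in Gap43-high cells, 0 then stayed there in both. Bbs10 was highest in Tex15 cells in both libraries, at 16.8 CPM on 13 UMIs in transgenic and 26.7 CPM on 4 UMIs in wild-type cells.

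**Figure D3:**
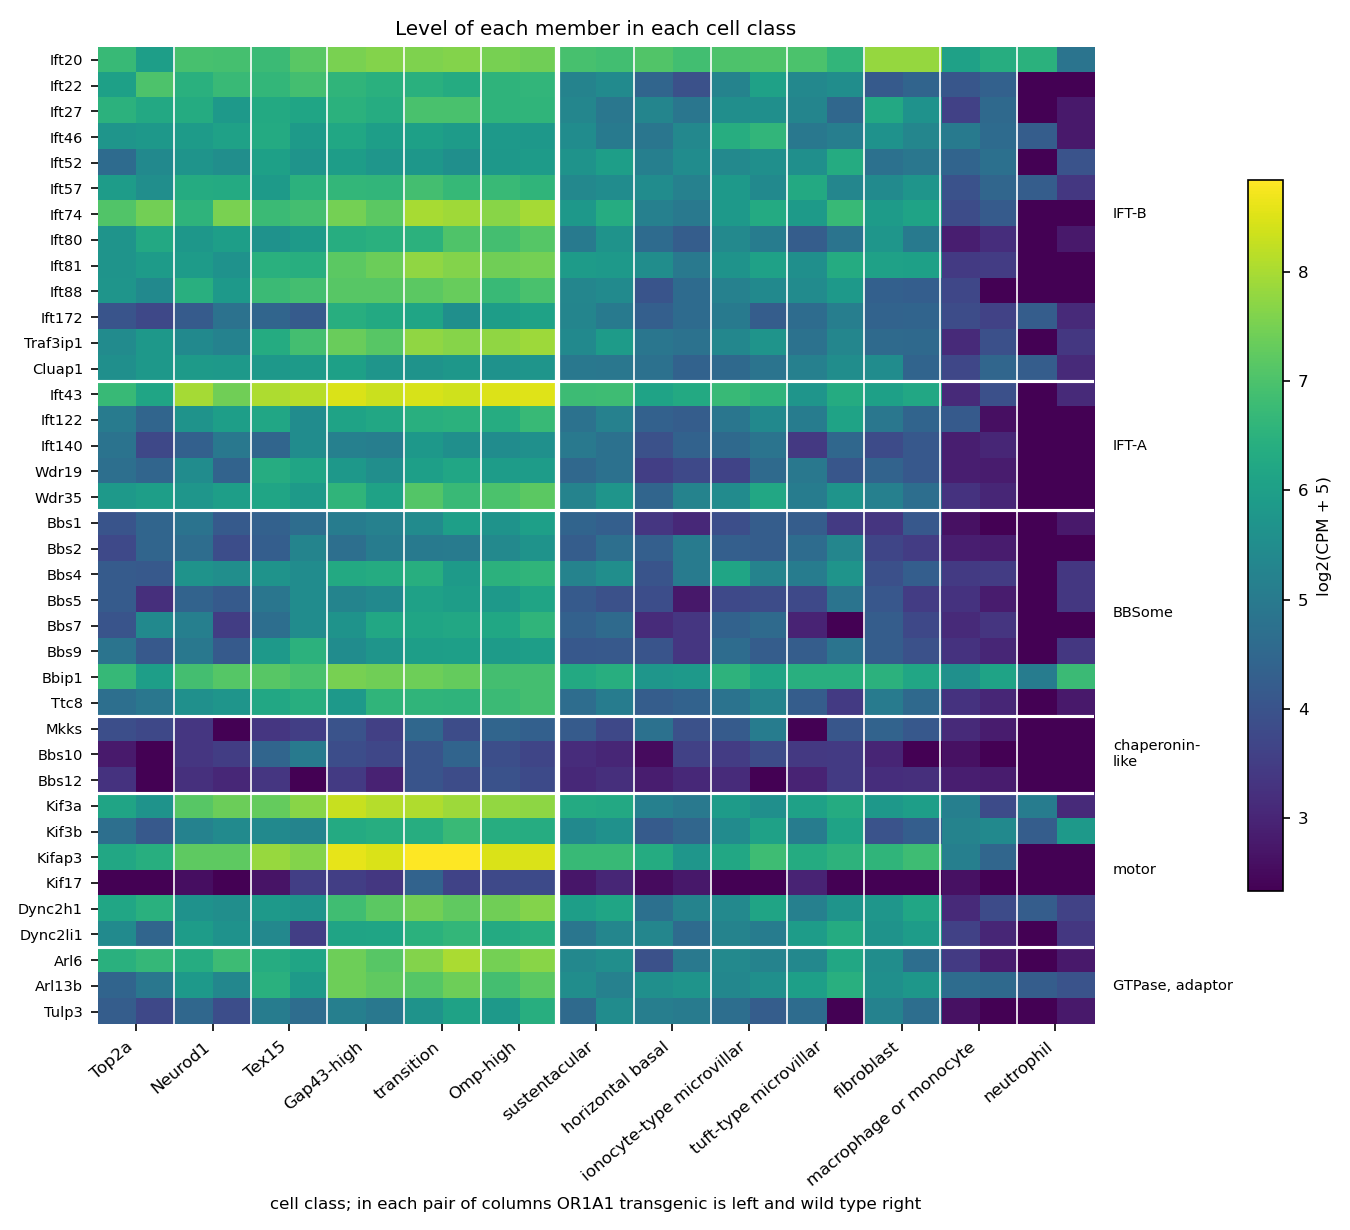
Level of each of the 38 members (rows, by role) as log2(CPM + 5) in each cell class (columns), with OR1A1 transgenic left of wild type in each pair; the neuronal lineage is left of the thick line. Most rows brighten from Gap43-high cells on and are dark in macrophages or monocytes and neutrophils, while Ift20 is brightest in fibroblasts (218 CPM transgenic, 219 CPM wild type).

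The mature class held 3 clusters. The cluster led by Dlg2, S100a5 and Scn4b held 414 transgenic and 217 wild-type cells. Its sums were 3844 CPM (3793 to 3895) in transgenic and 4210 CPM (4133 to 4288) in wild-type cells. The cluster led by Gucy1b2, Fxyd2 and B830017H08Rik held 171 transgenic and 140 wild-type cells. Its sums were 4140 CPM (4061 to 4220) and 4398 CPM (4303 to 4495), so its intervals lay above those of the Dlg2-led cluster in both libraries. The cluster led by Avp, Esp22 and Pth2 held 61 transgenic and 86 wild-type cells. Its sums were 4166 CPM (4022 to 4314) and 4262 CPM (4137 to 4390) in transgenic and wild-type cells.

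Mature neurons stood above every non-neuronal class in the summed members, and 0 members were called lower in any of the 6 comparisons. Of all genes, 17.7% were lower than in sustentacular, 17.4% than in horizontal basal, 14.4% than in ionocyte-type, 16.6% than in tuft-type, 19% than in fibroblast and 15.9% than in myeloid cells. Of the 38 members, 35 were higher in mature neurons than in myeloid cells (35.1% of all genes measured), 29 than in horizontal basal cells (23.9%), and 28 than in fibroblasts, the stromal class (22.5%). Against sustentacular cells, the glia-like supporting cells, 26 were higher (15.4% of all genes). Against ionocyte-type microvillar cells 22 were higher (13.6%), and against tuft-type microvillar cells 18 (15.3%). The median log2 ratios were 3.76 for myeloid, 2.29 for horizontal basal, 1.83 for fibroblast, 1.52 for sustentacular, 1.47 for ionocyte-type and 1.26 for tuft-type cells. With 5 UMIs added, 13 members were higher over ionocyte-type and 8 over tuft-type cells, with medians of 0.96 and 0.59. The ionocyte-type median was 2.22 with a mitochondrial share of up to 20%. The ionocyte-type and tuft-type classes held 12 and 23 wild-type cells. Most UMIs came from mature neurons, so members could pass the 20-UMI minimum through them alone. Some called members had wild-type counting intervals that crossed 0. Examples were Bbs9 over tuft-type cells (-0.05 to 3.20) and Kif17 over horizontal basal cells (-0.21 to 7.67). Over those classes intervals lay above 0 in both libraries for 21 (15.4% of all genes) and 31 members (31.0%). The summed level was 1393 CPM in transgenic sustentacular cells and 1529 CPM in wild-type sustentacular cells, 953 and 948 CPM in horizontal basal cells, 1398 and 1562 CPM in ionocyte-type cells, and 1258 and 1620 CPM in tuft-type cells. It was 1369 and 1296 CPM in fibroblasts, 416 and 434 CPM in macrophages or monocytes, and 239 and 268 CPM in neutrophils of the transgenic and wild-type libraries. Olfactory ensheathing glia, a small class of 15 transgenic and 7 wild-type cells that was not compared gene by gene, had 2091 and 2123 CPM of the members beside 1368 and 1420 CPM of Omp.

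RNA of neurons was also found in some of these classes. Omp, the olfactory marker protein of mature neurons, stood at 658 CPM in transgenic sustentacular cells and 1055 CPM in wild-type sustentacular cells, and at 366 and 727 CPM in ionocyte-type cells, against 5022 and 5085 CPM in mature neurons. The 8 mature neuron markers summed to 2398 CPM in transgenic sustentacular cells and 3546 CPM in wild-type sustentacular cells, none of them at 0, and to 18725 and 20051 CPM in mature neurons. When only cells with fewer than 5 Omp UMIs were kept, 56 of 88 transgenic and 13 of 22 wild-type sustentacular cells remained, with member sums of 931 and 1036 CPM. Ionocyte-type cells then gave 1284 CPM in 42 transgenic cells and 1128 CPM in 10 wild-type cells, and the sums of fibroblasts and of tuft-type cells stayed as they were because all of their cells were kept. Barcodes with under 100 UMIs, which hold free RNA, had a member sum of 1291 CPM for transgenic and 815 CPM for wild-type barcodes. Mitochondrial UMIs made up 37.4% and 51.3% of these barcodes, against 7.73% and 8.12% in transgenic and wild-type sustentacular cells. Their member sums are therefore lowered and not directly comparable with the class sums or between libraries. The part of neuronal RNA in the non-neuronal levels was otherwise not tested.

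Some members stood higher in mature neurons than in every class and some did not. A group of 15 of the 38 was called higher over all 6 classes, as were 7.93% of the 10443 genes measured in all of them: Ift43, Ift74, Ift80, Ift81, Ift88, Traf3ip1, Bbs1, Bbs5, Bbs7, Bbs9, Ttc8, Arl6, Kif3a, Kifap3 and Dync2h1. Traf3ip1 had mean log2 ratios over the libraries of 2.27 over sustentacular, 3.17 over horizontal basal, 2.35 over ionocyte-type, 2.78 over tuft-type, 3.45 over fibroblast and 5.15 over myeloid cells. Ift43 had 358 CPM in transgenic mature neurons and 361 CPM in wild-type mature neurons, and 3.24 and 7.83 CPM in myeloid cells, on 3 and 12 UMIs. Bbs7 had 69.5 CPM in transgenic mature neurons and 90.7 CPM in wild-type mature neurons, against 3.69 and 5.21 CPM in horizontal basal cells. Its counts there were 5 and 3 UMIs, and it had 1 and 0 UMIs in tuft-type cells.

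Ift46 was called over none of the 6 classes, and Ift20, Bbs12, Bbip1, Mkks and Cluap1 over 1 class each. Ift46, an IFT-B core subunit that helps to import outer dynein arms in Chlamydomonas, had 52.8 CPM in transgenic mature neurons and 51.3 CPM in wild-type mature neurons. Ionocyte-type microvillar cells had 78.3 and 93.8 CPM of Ift46, so the ratio of mature neurons over them was below 0, at -0.59 (-0.95 to -0.17) in transgenic and -0.94 (-1.53 to -0.14) in wild-type cells. Ift20, which also acts at the Golgi, had 177 CPM in transgenic mature neurons and 168 CPM in wild-type mature neurons and 218 and 219 CPM in fibroblasts. Its log2 ratio of mature neurons over fibroblasts was -0.31 (-0.51 to -0.09) in transgenic and -0.40 (-0.68 to -0.09) in wild-type cells. Mkks had 16.9 and 15.2 CPM in mature neurons and 16.0 and 12.4 CPM in fibroblasts of the transgenic and wild-type libraries.

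The genotypes were compared in mature and in Gap43-high neurons. In mature neurons 0 of 38 members differed by 2-fold or more between transgenic and wild-type cells, against 9.15% of all genes measured. The median log2 ratio of transgenic over wild type was -0.10, with 10 members above and 28 below 0. Counting intervals lay below 0 for 14 members (23.3% of all genes) and above 0 for 0 members (15.2% of all genes). With TMM scaling the median was 0.01, so the direction of the median depends on the scaling. Tulp3 had the lowest ratio, -0.59 (-0.78 to -0.40), with 53.1 CPM in transgenic mature neurons and 80.2 CPM in wild-type mature neurons. Ift122 followed with -0.39, on 76.7 CPM in transgenic cells and 101 CPM in wild-type cells, and Bbs7 with -0.39. Bbs10 had the highest ratio, 0.31 (-0.21 to 0.88).

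In Gap43-high neurons 0 of the 37 members measured differed by 2-fold or more, against 6.96% of all genes, and the median log2 ratio of transgenic over wild type was 0.07. Ttc8 was lowest at -0.80 (-1.22 to -0.34), with 52.7 CPM in transgenic cells and 91.0 CPM in wild-type cells. Of the members measured, Wdr35 was highest at 0.51 (0.08 to 1.03), with 90.8 CPM in transgenic cells and 62.5 CPM in wild-type cells. In mature neurons Ttc8 had 105 CPM in transgenic cells and 113 CPM in wild-type cells. With 1 library per genotype, differences between libraries and between genotypes cannot be told apart.

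Neurons of the transgenic library in which the transgene feature led the receptor UMIs were set beside those led by an endogenous receptor. The 151 transgene-led mature neurons had a member sum of 3829 CPM (3742 to 3917), and the 456 receptor-led ones 3992 CPM (3943 to 4040). Of the 38 members 0 differed by 2-fold or more, against 7.87% of all genes, and the median log2 ratio was -0.05. Counting intervals lay above 0 for 1 member (8.78% of all genes) and below 0 for 4 members (13.4% of all genes). The 1 was Ift172, with 75.4 CPM in transgene-led and 52.4 CPM in receptor-led neurons and a log2 ratio of 0.53 (0.23 to 0.81). The 4 were Ift43, Kifap3, Bbip1 at -0.34 and Arl13b at -0.30. These cells come from 1 library and are not replicates.

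Other ciliary lists were counted at the same steps. Among all genes measured, 7.26% were higher and 10.6% lower in mature than in Gap43-high neurons. Of the 10 olfactory transduction genes, whose products are the cargo of the olfactory cilium, 9 were higher in mature than in Gap43-high neurons, with a median log2 ratio of 2.64. Their sum was 22028 CPM in transgenic mature neurons and 24504 CPM in wild-type mature neurons, and 4747 and 5925 CPM in Gap43-high neurons. Of this list, Adcy3, Cnga2, Cngb1, Gnal, Ano2 and Stoml3 are also among the markers that named the mature class. Their higher level there is therefore not an independent result. Adcy3, the adenylyl cyclase of olfactory signalling, had log2 ratios of 4.02 in transgenic and 3.34 in wild-type cells. Of 23 genes of the motile axoneme, known from beating cilia, 11 were higher and 1 was lower, with a median of 1.27. Dnai2, an outer dynein arm chain, had log2 ratios of 1.96 and 2.06, and Dnah5, an outer arm heavy chain, -1.51 and -2.19 in transgenic and wild-type cells. Multiciliated markers summed to 849 CPM in transgenic mature neurons and 870 CPM in wild-type mature neurons and to 419 and 435 CPM in Gap43-high neurons, and no cluster of multiciliated cells was found.

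Between Gap43-high and mature neurons, 7.26% of all genes were higher and 10.6% lower. The lists nearest to the members in function were counted beside these shares. Of 10 measured other IFT, dynein-2 and BBSome-associated genes, 1 was higher and 1 lower, with a median log2 ratio of 0.06. These were Dynlt2b, a dynein-2 light chain, at 1.13 in transgenic and 1.28 in wild-type cells, and Ttc21b (IFT139), an IFT-A subunit outside the 38, at -2.85 and -2.75. Of 19 transition zone genes, which gate the ciliary base, 0 were higher and 1 was lower, Tmem17 at -1.22 in transgenic and -1.15 in wild-type cells. Of 14 basal body and distal appendage genes 0 passed, and their sum was highest in Top2a cells, at 1971 CPM in transgenic cells and 1748 CPM in wild-type cells. Of 12 genes for lipidated cargo, 2 were higher, Rp2 and Unc119b, and 1 was lower, Unc119 at -2.39 and -1.77. Of 10 tubulin genes 2 were lower, Tubb3 at -1.80 and -1.70 and Tuba1a at -1.47 and -1.09 in transgenic and wild-type cells. Of 8 measured ciliogenesis regulators 0 passed.

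The same lists were also counted in Gap43-high neurons over progenitors, where 16.5% of all genes were higher and 9.08% lower. For the motile axoneme 12 of 14 measured genes were higher with a median log2 ratio of 2.38, and for transduction 8 of 9 with a median of 3.66. For the other IFT genes 2 of 9 were higher with a median of 0.49, and for the transition zone 2 of 14 with 0.62. Basal body genes had 2 higher and 2 lower of 14, lipidated cargo 2 higher of 11, and tubulin genes 1 higher and 1 lower of 9. The lower tubulin gene is Ccp110, a centriolar cap protein that is on both lists and is also 1 of the 2 lower basal body genes. The regulators Foxj1 and Rfx3, transcription factors of ciliary genes, were the 2 higher of 4 measured. Foxj1 had log2 ratios of 2.75 in transgenic and 1.33 in wild-type cells, and Rfx3 1.88 and 2.28.

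**Figure D4:**
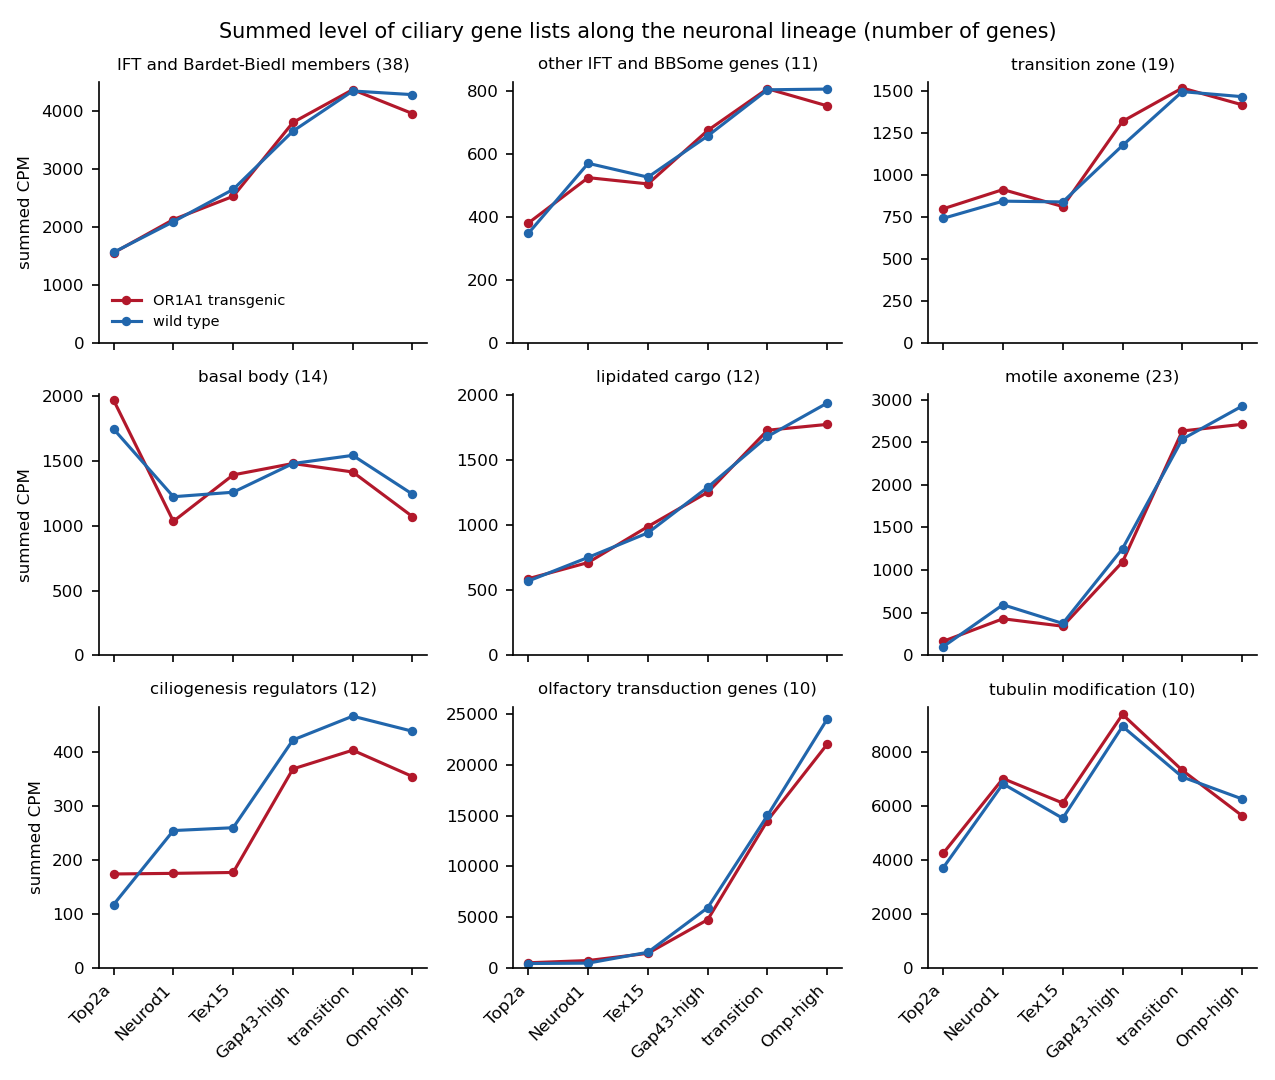
Summed level of each ciliary list along the 6 neuronal stages (vertical axes, summed CPM from 0, each list on its own scale; number of genes in the titles), with OR1A1 transgenic in red and wild type in blue; no error is drawn. In plain CPM the 38 members reach 87.0% (transgenic) and 84.0% (wild type) of their highest sum in Gap43-high neurons, the transduction list is highest in mature neurons and the basal body list in Top2a cells.

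Outside the lists, genes were ranked by the Pearson correlation of log2(CPM + 5) with the mean member profile over 26 points, which were 13 classes in each of the 2 libraries. These points share cells' depth and library, so the values are descriptions. Among 3297 genes outside the lists with at least 50 CPM in mature neurons of both libraries, the 10 most alike were Atxn7l3b, Ube2o, Gas8, Cfap298, Cfap36, Cfap20, Hmgn3, 1500011B03Rik, Magi2 and Zc2hc1a, with r between 0.955 and 0.967. Cfap36 had 555 CPM in transgenic mature neurons and 502 CPM in wild-type mature neurons, and 288 and 241 CPM in Gap43-high neurons. Each member was compared in the same way with the mean profile of the other members. Ift81, Ift43 and Kifap3 lay nearest to it, with r of 0.97 each. Kif3b, at 0.55, and Mkks, at 0.50, lay farthest.

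The last exon of Ift57 overlaps the antisense gene Gm15518 on the opposite strand by 93 bases, and whether counting used strand is not stated in the labels or headers, so its level is uncertain. No other member's last exon overlapped another counted gene in the annotation used.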

How the data were processed

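The authors deposited raw UMI counts per gene and barcode, 1 unfiltered matrix for each of the 2 libraries. Per the submitters' processing notes Cell Ranger 6.1.1 and build GRCm39 (mm39) were used, while the file headers name another Cell Ranger release. Cells were barcodes with at least 1000 UMIs or 10% of the 99th percentile of the 5000 largest barcodes, whichever was larger, with 500 genes and at most 10% mitochondrial UMIs. Scrublet marked 4 transgenic and 2 wild-type barcodes (0.229% and 0.179%), and these were removed; undetected doublets may remain. Scanpy 1.11.5 clustered the cells on 2000 variable genes, 30 components and 15 neighbours (Leiden resolution 1), without members, ciliary, receptor, transgene, mitochondrial and ribosomal genes. Clusters were named from marker lists, and the transition cluster (at least 1000 CPM Omp and 300 CPM Gap43) by thresholds set after seeing the data.

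UMIs were summed per class, and a gene was measured with 20 UMIs over both classes in each library. Ratios had 1 UMI added. Intervals are exact Poisson, conditional binomial or Clopper-Pearson and cover counting error only. With 1 library per genotype no test was run. Named members were the 5 highest and 5 lowest ratios of each comparison and the 2 with most mature-neuron UMIs in each role; genes of other lists were taken from the 3 highest and 3 lowest mature over Gap43-high ratios. Called members, Ift172 in the transgene comparison, Foxj1 and Rfx3 were also named after their values were seen. Scripts were tested on simulated data. The members and lists were chosen with earlier results of these data known. TMM factors came from edgeR 4.0.16. Promoters were matched by symbol to RefSeq (GRCm38.p6), and last exons to GENCODE.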

Additional observations from a re-analysis of the deposited data

How the results depend on the processing

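Alternatives covered the cell filters, doublets, clustering, scaling, weighting of cells, UMI minimum, added UMI and fold, and those with 1 library alone and with Neurod1 cells alone as progenitors were chosen after seeing the data. Of 413 member ratios, 6978 of 7033 alternatives stayed within the counting interval, 55 moved out of it and 0 turned a called direction. For mature over Gap43-high neurons the count of higher members, 0, was 2 with ciliary genes kept in clustering, 6 with TMM factors, 6 at 1.5-fold and 3 in the wild-type library alone. For Gap43-high neurons over progenitors the count of 12 was 5 with a fixed minimum of 2000 UMIs, 5 at Leiden resolution 0.5, 23 at 1.5-fold, 7 against Neurod1 cells alone and 19 in the wild-type library alone. With 5 UMIs added, the higher counts over ionocyte-type and tuft-type cells were 13 and 8. Between genotypes, 1 member was lower in transgenic mature neurons at 1.5-fold, and in Gap43-high neurons 2 were lower at 1.5-fold and 1 was higher with stages set by marker UMIs. The causes were not tested. These counts are given without the shares of all genes under the same alternatives, so they are not set against a background. The median ratio ranged over these alternatives between 0.15 and 0.65 for mature over Gap43-high neurons and between 0.68 and 1.30 for Gap43-high neurons over progenitors. Over ionocyte-type cells it ranged between 0.96 and 2.22, and over tuft-type cells between 0.59 and 1.72. No paired analysis was possible because each genotype has 1 library, and for the same reason no replicate could be left out. Depth limits Bbs10, Bbs12, Mkks and Kif17, and the small wild-type Top2a and Tex15 classes.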
